A study of Mus musculus with 12 samples.

Results

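The FOS and JUN genes encode the subunits of AP-1, a transcription factor that binds DNA as a dimer. The 7 genes of the family, *Fos*, *Fosb*, *Fosl1*, *Fosl2*, *Jun*, *Junb* and *Jund*, were taken by symbol from 56980 genes in a table of bulk RNA-Seq counts, and all 7 were found. They were described in murine W-20-17 bone marrow stromal cells (W-20 cells), a line kept in DMEM with serum, after 2 hours with 50 nM parathyroid hormone (PTH) or with vehicle (PBS). Of the 12 libraries, 3 were made from unmodified cells with vehicle (W20 VEH), 3 from unmodified cells with PTH (W20 PTH), and 3 each from a Y428F line with vehicle (Y428F VEH) or with PTH (Y428F PTH).

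Y428F stands for a change of YAP, the transcriptional coactivator of the Hippo pathway, that replaces the phosphorylated tyrosine with phenylalanine. The study made a stable W-20 line with this change alone and another that also carried S381A, and describes the sequenced cells as the latter. The library titles say Y428F only, and the genotype entry of all 12 libraries reads WT, so the grouping rests on the titles. The mutated lines were made with a CMV-driven Flag-YAP plasmid and puromycin selection. Because no library of cells with introduced wild-type YAP was analysed here, the effect of the mutation cannot be told apart from other ways in which the lines differ. Nothing in the labels says that the 3 libraries of a group came from separate cultures, so p-values measure the spread between these libraries, which may be technical.

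FOS proteins do not form stable dimers among themselves and bind DNA as partners of JUN proteins, whereas JUN proteins also dimerize with each other. FOS and FOSB are classical immediate early gene products, made within minutes of a stimulus and lost soon after, whereas FRA-1 (*Fosl1*) and FRA-2 (*Fosl2*) appear later and lack the strong activation domain of FOS. In bone, PTH raises cAMP in cells of the osteoblast lineage and is known to induce FOS family genes through CREB, and mice that overexpress FRA-1 or a short form of FOSB form excess bone.

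CREB binds the cAMP response element (CRE), and promoter sequences are shown for the family genes with a CRE half-site close to their start (*Fos*, *Fosb* and *Junb*). *Jun* is shown beside them and was chosen by its result, as the one called lower with PTH in both lines. Of the genes with a half-site, *Fos* was called with PTH in neither line, *Fosb* only in W20 and *Junb* only in Y428F. Whether a half-site bears on the response to PTH was not tested. RefSeq windows (GRCm38.p6) were on hand for 6 of the 7 genes, each with 1 exact match in GRCm39, and there is none here for *Fosl1*. The windows are written 5′ to 3′ on the strand of the gene and lie at chr12:85520414-85520657 (plus strand), chr7:19043977-19044220 (minus strand), chr8:85705378-85705627 (minus strand) and chr4:94940460-94940709 (minus strand) of GRCm39. Those of *Fos*, *Fosb* and *Jun* run up to the first base of the gene's own exons. The *Junb* window stops shortly before the annotated gene, which begins at 85705359 on the minus strand. Capitals mark TGACG, the half-site of the CRE, and TATAAA.
Fos: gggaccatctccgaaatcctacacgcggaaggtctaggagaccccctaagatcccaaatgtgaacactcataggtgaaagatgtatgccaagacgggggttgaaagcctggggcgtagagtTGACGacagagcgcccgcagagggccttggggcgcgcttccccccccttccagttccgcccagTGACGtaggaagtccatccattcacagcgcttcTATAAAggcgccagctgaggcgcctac
Fosb: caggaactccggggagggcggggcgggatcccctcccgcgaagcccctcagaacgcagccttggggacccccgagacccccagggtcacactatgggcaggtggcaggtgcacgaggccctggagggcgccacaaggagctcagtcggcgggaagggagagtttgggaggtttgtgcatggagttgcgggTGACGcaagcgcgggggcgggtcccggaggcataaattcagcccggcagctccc
Junb: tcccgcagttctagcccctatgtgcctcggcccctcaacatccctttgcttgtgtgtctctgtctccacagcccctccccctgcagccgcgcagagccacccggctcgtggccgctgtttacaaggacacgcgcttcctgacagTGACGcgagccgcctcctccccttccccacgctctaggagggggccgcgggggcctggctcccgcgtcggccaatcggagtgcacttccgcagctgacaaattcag
Jun: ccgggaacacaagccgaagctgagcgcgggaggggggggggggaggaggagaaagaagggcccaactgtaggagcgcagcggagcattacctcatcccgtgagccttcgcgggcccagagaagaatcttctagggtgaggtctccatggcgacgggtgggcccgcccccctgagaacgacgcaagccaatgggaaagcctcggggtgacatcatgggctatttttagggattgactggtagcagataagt

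Counting back from the RefSeq start, TGACG began at -129 and -66 in the *Fos* window, at -60 in *Fosb* and at -106 in *Junb*, and TATAAA at -33 in *Fos*. The 250 bases before the start were searched on both strands in 32851 windows for TGACGTCA (the full CRE), TGACG (which the full CRE contains), TGANTCA (the AP-1 site), GGAATG (the TEAD site), TATAAA and the CArG box, to which SRF binds. Of the 6 family windows, 3 held TGACG, against 17.8% of all windows, and none held the full CRE, against 1.55%. None of the 6 held the AP-1 site (6.75% of all windows), the TEAD site (12.6%) or the CArG box (1.47%), and 1 held TATAAA (12.4%). A match is an exact match of letters only, so near forms, such as tgacatca in the *Jun* window, were not counted or marked. These windows also leave out more distant elements. The *Fosl2* window lies inside an annotated exon and the *Jund* window ends well before the annotated gene, so neither is printed.

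Library totals ran from 17127897 to 19057319 counts. Counts were scaled to CPM (the count relative to its library total) with TMM factors, and each comparison below comes from one edgeR quasi-likelihood fit across the 17691 genes with at least 10 counts over the 12 libraries, with Benjamini-Hochberg adjusted p-values over all of them and a limit of 0.05. All 7 family genes passed this filter. The cells carried the markers of stroma: 11 of 14 stromal genes averaged at least 1 CPM, with *Col1a2* the most abundant, whereas *Thy1* was at 0 in every library, *Nt5e* reached at most 2 counts and *Lepr* at most 21 counts. Of the osteoblast markers only *Runx2* and *Spp1* reached that level, and *Sp7*, *Alpl* and *Bglap* had at most 4, 7 and 2 counts in a library. Transcripts of *Pth1r*, the PTH receptor, were at 0 to 10 counts per library, near the limit of detection at this depth. In bulk RNA, fewer cells that express a gene and less of its RNA in each cell cannot be told apart.

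*Yap1*, the gene that encodes YAP, was at 147 ± 4.64 CPM in Y428F VEH and 171 ± 2.66 in Y428F PTH, against 189 ± 7.20 in W20 VEH and 240 ± 8.75 in W20 PTH (mean ± SD, n = 3). The counts do not separate an introduced transcript from the endogenous one, so they do not check the label.

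Compared per kilobase of exon, *Jund*, whose product is known to be abundant in resting cells, was by far the highest of the family in all 4 groups. Its level was 425 ± 14.0 CPM per kb in W20 VEH, 374 ± 16.7 in W20 PTH, 260 ± 16.2 in Y428F VEH and 234 ± 6.99 in Y428F PTH (mean ± SD, n = 3). That was 80.9%, 78.5%, 75.4% and 70.7% of the sum over the 7 genes. The share depends on the length used: with the median transcript length it was 64.9%, 59.8%, 56.4% and 49.9%, still the highest of the 7 in each group.

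*Fosl2* was the most abundant FOS gene on every length tried. Its level per length of 44.1 ± 1.13 CPM per kb in W20 VEH was above *Junb* at 31.3 ± 5.14, *Jun* at 18.0 ± 1.93 and *Fosl1* at 6.42 ± 1.68. *Fos* and *Fosb*, at 0.555 ± 0.0561 and 0.293 ± 0.0252 CPM per kb, lay lowest, and which of this pair was lower in the PTH groups depended on whether exon union or canonical transcript length was used. In Y428F PTH, *Junb* at 38.4 ± 2.10 CPM per kb stood above *Fosl2* at 33.8 ± 2.41, but with the median transcript length *Fosl2* was above *Junb* there too (101 ± 7.21 against 64.1 ± 3.50). The order of *Fosl1* and *Jun* also changed with the length. Together the 3 JUN genes made up 90.2% ± 0.174 of the per-length sum in W20 VEH, 87.4% ± 0.800 in W20 PTH, 86.7% ± 0.560 in Y428F VEH and 85.3% ± 0.953 in Y428F PTH. With the median transcript length, these shares were 75.5%, 69.6%, 68.7% and 65.7%.

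**Figure D1:**
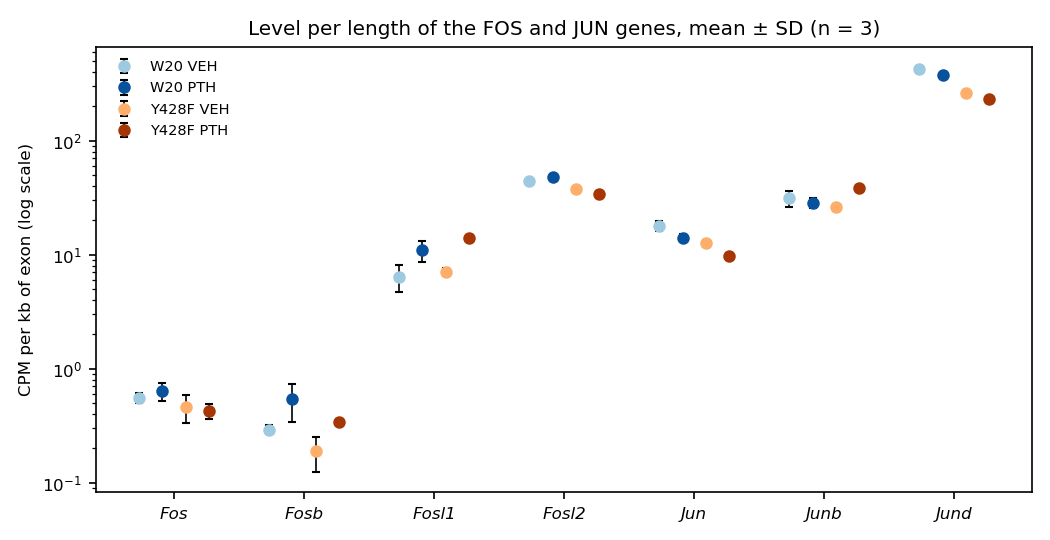
Level per length (CPM per kb of exon, log scale) of each FOS and JUN gene in the 4 groups, as the mean of 3 libraries with SD bars. *Jund* lies at 234 to 425 CPM per kb and *Fos* and *Fosb* below 1 CPM per kb in every group.

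The first question was how the family stood after 2 hours of PTH in unmodified W-20 cells. *Fosb* and *Fosl1* were higher with PTH and *Jun* and *Jund* lower, whereas *Fos*, *Fosl2* and *Junb* did not pass the test. These were 2 higher and 2 lower of 7, beside 13.4% of all 17691 genes called (7.42% higher and 6.01% lower). That background includes genes with fewer than 10 counts in a library, which are harder to call. In a fit of the 11543 genes with at least 10 counts in every library, as all 7 family genes had, the called share was larger. There, 1363 genes were higher and 1294 lower, and 4 family genes were called. The libraries of the 2 groups did not overlap for 4 of the 7 genes, against 26.4% of all genes. The median log2 fold change was 0.11 over the family and -0.02 over all genes.

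The same question in the Y428F line gave 2 higher genes, *Fosl1* and *Junb*, and 1 lower gene, *Jun*, beside 12.4% of all genes called (6.61% higher and 5.78% lower). Among the 11543 genes with at least 10 counts in every library, 1245 were higher and 1210 lower, again a larger share. The libraries did not overlap for 6 of the 7 genes, against 30.8% of all genes. The median log2 fold change was -0.12 over the family and -0.01 over all genes. Between the lines, the response to PTH differed by the interaction test for 1 of the 7 genes, *Junb*, beside 0.413% of all genes (73 genes, of which 0.17% of those tested were more positive in Y428F and 0.243% more negative). The count of 73 was 24 to 89 when 1 library was left out. At an unadjusted p under 0.05, 1247 genes differed. Of the 11543 genes with at least 10 counts in every library, 37 were called more positive in Y428F and 49 more negative.

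**Figure D2:**
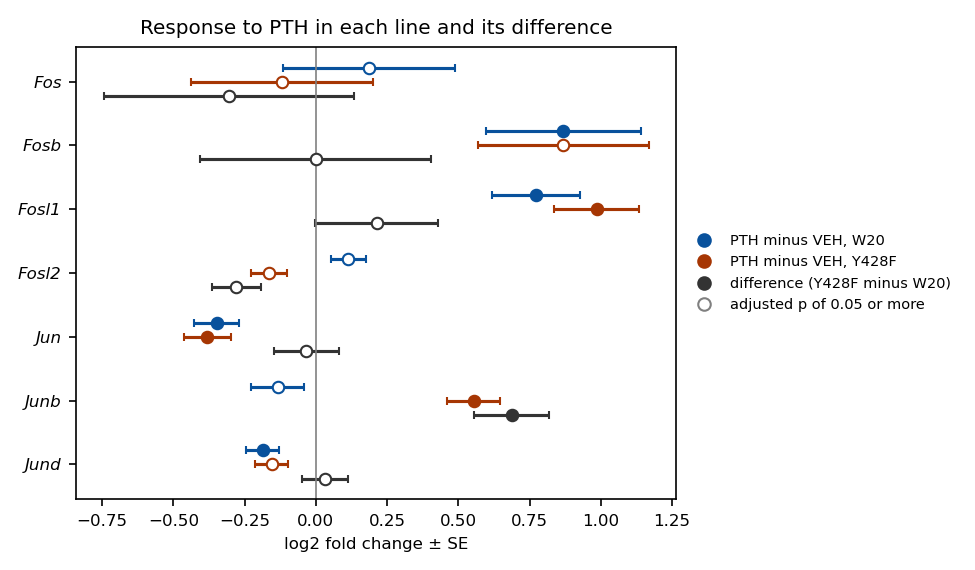
Log2 fold change with PTH in each cell line, and the difference between the lines (Y428F minus W20), for the 7 genes, with SE bars from the edgeR fit on 3 libraries per group and filled points for an adjusted p under 0.05. *Fosl1* lies to the right and *Jun* to the left in both lines, and *Junb* is the one gene with a filled point for the difference (0.69).

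*Fosl1* encodes FRA-1, a FOS protein without a transactivation domain (chr19:5497575-5505974, plus strand, 4 exons at most). W20 VEH libraries had 9.57, 16.4 and 13.2 CPM and W20 PTH libraries 23.1, 26.6 and 17.1 CPM. Y428F VEH libraries had 13.1, 14.6 and 15.6 CPM and Y428F PTH libraries 28.6, 30.1 and 27.0 CPM. The PTH and vehicle libraries of a line did not overlap and PTH was the higher, although the lowest W20 PTH library was close to the highest W20 VEH library. The log2 fold change was 0.77 ± 0.155 (SE) in W20 (1.71-fold, adjusted p = 0.00177) and 0.99 ± 0.150 in Y428F (1.98-fold, adjusted p = 0.00014). The responses differed by 0.21 ± 0.216 on the log2 scale (adjusted p = 0.907), an SE as large as the difference. Both calls were kept in all 20 alternative settings, with log2 changes of 0.60 to 0.97 in W20 and 0.93 to 1.04 in Y428F. These settings, here and below, are not independent of each other. They include the main fit read at a limit of 0.01 and fits that leave out a library of the other line.

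*Fosb* (chr7:19036621-19043976, minus strand), the immediate early gene whose short splice form accumulates under repeated stimulation, was scarce, at 17 to 76 counts per library. In W20 it stood at 2.01, 1.76 and 1.72 CPM with vehicle and at 3.18, 4.67 and 2.21 CPM with PTH. In Y428F it stood at 1.64, 0.960 and 0.928 CPM with vehicle and at 2.27, 2.13 and 2.04 CPM with PTH. The groups did not overlap in either line, but the W20 PTH libraries were spread over a wide range. On the log2 scale the change was 0.87 ± 0.272 in W20 (adjusted p = 0.0372) and 0.87 ± 0.300 in Y428F (adjusted p = 0.0625), and the responses differed by -0.00024 ± 0.405.

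The W20 call for *Fosb* was lost with the 6 W20 libraries alone (adjusted p = 0.0598). It was also lost without W20 VEH replicate 2 (0.0919) or 3 (0.111) and without W20 PTH replicate 1 (0.0776) or 2 (0.251, log2 change 0.56). The Y428F value passed the limit in 7 of 20 alternative settings, among them those without Y428F VEH replicate 1 (0.0305, log2 change 1.18) and without W20 PTH replicate 2 (0.0401) or 3 (0.0365), and the fit with the replicate number as a block (0.0487).

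*Fos* (chr12:85520658-85524047, plus strand), the prototype of the family, was at 15 to 29 counts per library. Its CPM values were 1.16, 1.42 and 1.34 in W20 VEH, 1.18, 1.60 and 1.69 in W20 PTH, 1.37, 0.758 and 1.15 in Y428F VEH, and 0.832, 1.12 and 1.05 in Y428F PTH. Vehicle and PTH libraries overlapped in both lines. The log2 fold change with PTH was 0.19 ± 0.302 in W20 (adjusted p = 0.774) and -0.12 ± 0.320 in Y428F (adjusted p = 0.883). With so few counts, a change of the size of these SEs was not detectable.

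*Fosl2* (chr5:32292707-32315186, plus strand), which encodes FRA-2, had 459, 447 and 470 CPM in W20 VEH and 502, 525 and 461 CPM in W20 PTH. It had 405, 398 and 379 CPM in Y428F VEH and 323, 371 and 360 CPM in Y428F PTH. The W20 groups overlapped, and in Y428F every PTH library was below every vehicle library. On the log2 scale it differed by 0.11 ± 0.0617 in W20 (adjusted p = 0.265) and -0.16 ± 0.0619 in Y428F (adjusted p = 0.0946). The difference of -0.28 ± 0.0873 did not pass the limit after adjustment (adjusted p = 0.342). The Y428F value passed with scaling by library totals alone (0.0206) and with the DESeq2 Wald test (0.0427).

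*Jun* (chr4:94937271-94940459, minus strand, 1 exon) encodes the JUN protein that most strongly activates AP-1 targets. Its W20 libraries had 50.5, 62.3 and 59.4 CPM with vehicle and 47.8, 45.6 and 41.8 CPM with PTH. Its Y428F libraries had 40.2, 39.1 and 42.9 CPM with vehicle and 31.9, 29.7 and 32.2 CPM with PTH. Every PTH library lay below every vehicle library of its line, and the Y428F PTH libraries were the lowest of the 12. *Jun* had a log2 fold change of -0.35 ± 0.0784 in W20 (0.786-fold, adjusted p = 0.00482) and -0.38 ± 0.0815 in Y428F (0.768-fold, adjusted p = 0.00346), and the responses differed by -0.03 ± 0.113 (adjusted p = 0.989). Both calls were kept in all 20 alternative settings.

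*Junb* (chr8:85701113-85705359, minus strand), a JUN protein that can restrain JUN at some promoters and stand in for it at others, and whose window above held 1 TGACG, had 60.3, 82.6 and 80.3 CPM in W20 VEH and 69.3, 73.4 and 60.7 CPM in W20 PTH. It had 65.2, 63.1 and 58.6 CPM in Y428F VEH and 91.6, 86.5 and 96.5 CPM in Y428F PTH. The W20 groups overlapped, with W20 VEH replicate 1 well below the other two, and in Y428F every PTH library was above all other libraries of the series. The log2 fold change was -0.13 ± 0.0939 in W20 (adjusted p = 0.422) and 0.55 ± 0.0930 in Y428F (1.47-fold, adjusted p = 0.000398). The difference between the responses was 0.69 ± 0.132 on the log2 scale (1.61-fold, adjusted p = 0.0215).

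Without 1 library, the call of the *Junb* difference was kept in 6 of 12 cases and lost in 6. Leaving out 1 library gave differences of 0.60 to 0.81 on the log2 scale, and the adjusted p was above the limit without W20 VEH replicate 2 (0.0548) or 3 (0.0693), W20 PTH replicate 1 (0.0545), Y428F VEH replicate 2 (0.0666) or 3 (0.0768), or Y428F PTH replicate 3 (0.0794). Without W20 VEH replicate 1, the low library, *Junb* fell with PTH in W20 by 0.25 on the log2 scale (adjusted p = 0.0226) and the difference was 0.81. The rise in Y428F was kept in all 20 alternative settings, at 0.51 to 0.59.

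The *Junb* locus overlaps the antioxidant gene *Prdx2* on the opposite strand, and the strand setting of the counting is not given in the sources used here. *Prdx2* averaged 441 ± 43.6 CPM in W20 VEH, 420 ± 47.8 in W20 PTH and 434 ± 38.5 in Y428F PTH, and Y428F VEH lay between them. Its response to PTH differed between the lines by 0.09 ± 0.114 (adjusted p = 0.932). How reads of the overlap were assigned was not tested. *Jun* overlaps *Junos* (15 to 48 counts per library), *Jund* overlaps *Gm11175* (6 to 31 counts), and *Fosl1* overlaps *Ccdc85b*, whose response was -0.10 in W20 and -0.15 in Y428F (adjusted p = 0.440 and 0.200).

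*Jund* (chr8:71151599-71153265, plus strand, 1 exon) had 683, 726 and 719 CPM in W20 VEH and 652, 621 and 596 CPM in W20 PTH. It had 464, 413 and 423 CPM in Y428F VEH and 387, 379 and 402 CPM in Y428F PTH. The PTH libraries were below the vehicle libraries in both lines without overlap. The log2 fold change was -0.19 ± 0.0575 in W20 (adjusted p = 0.0349) and -0.15 ± 0.0578 in Y428F (adjusted p = 0.0935), with a difference of 0.03 ± 0.0815.

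The small W20 change of *Jund* did not pass with the 6 W20 libraries alone (adjusted p = 0.0829). Leaving out 1 library also ended it for W20 VEH replicate 2 (0.121) or 3 (0.104), W20 PTH replicate 2 (0.0905) or 3 (0.0994), Y428F VEH replicate 3 (0.0550) and Y428F PTH replicate 3 (0.0551). In Y428F the value passed with library totals alone (0.0221) and with the DESeq2 Wald test (0.0319).

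**Figure D3:**
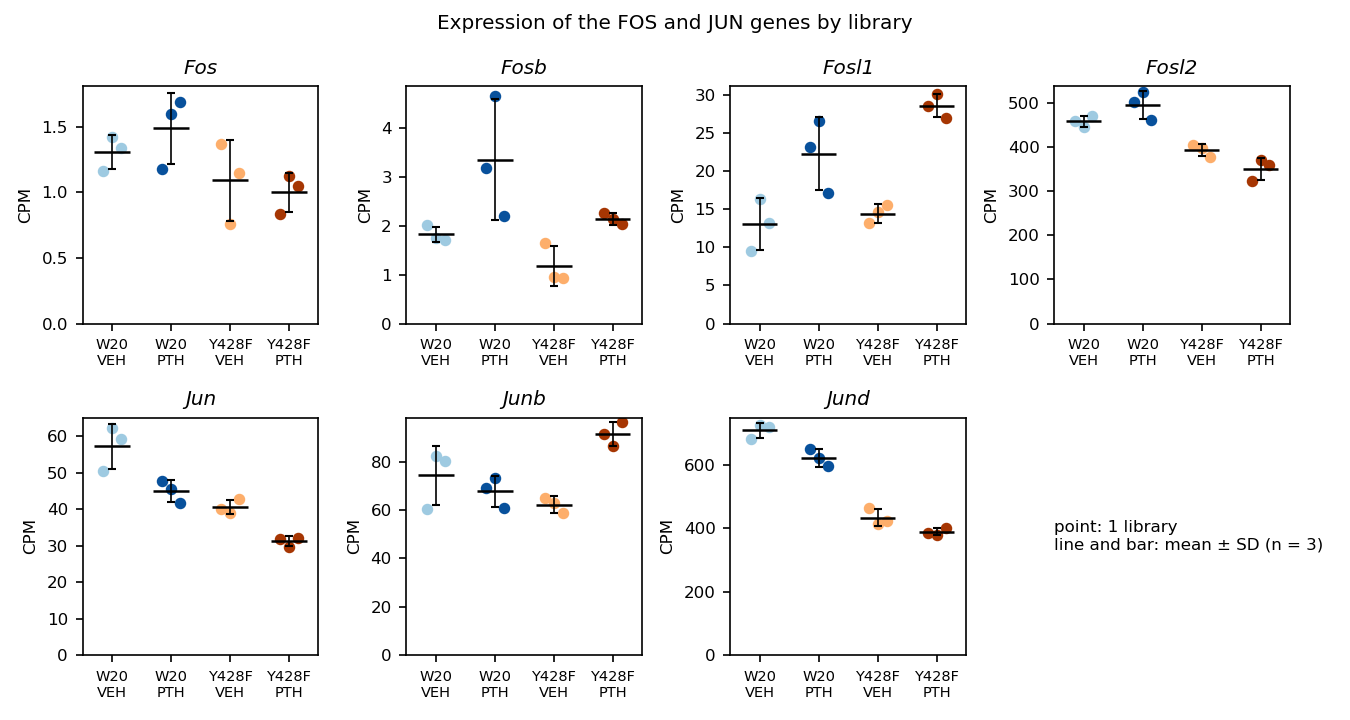
CPM of each FOS and JUN gene in the 12 libraries (points), with the mean and SD of 3 libraries per group (lines and bars) and axes that start at 0. *Junb* is highest in Y428F PTH (86.5 to 96.5 CPM), *Jund* and *Jun* step down from W20 VEH to Y428F PTH, and *Fosl1* is higher with PTH in both lines.

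The second question was how the lines differed under the same treatment. With vehicle, *Fosl2*, *Jun*, *Junb* and *Jund* were lower in Y428F and no family gene was higher. These 4 of 7 stand beside a background of 45.1% of all genes called, 22.4% higher and 22.7% lower. With PTH, *Fosl1* and *Junb* were higher in Y428F and *Fosl2*, *Jun* and *Jund* lower, beside 45.7% of all genes called, 22.8% higher and 23% lower. Both backgrounds were larger among the 11543 genes with at least 10 counts in every library. There, 3496 were higher and 3590 lower with vehicle, and 3578 higher and 3550 lower with PTH. Libraries did not overlap for 4 of 7 genes with vehicle and 6 of 7 with PTH, against 53.8% and 51.9% of all genes. The median log2 difference over the family was -0.27 with vehicle and -0.53 with PTH, against 0.01 and 0.02 over all genes. These comparisons share libraries with the PTH comparisons above.

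*Jund* showed the largest difference between the lines among the genes called, at -0.71 ± 0.0576 with vehicle (0.611-fold, adjusted p = 2.5e-09) and -0.68 ± 0.0577 with PTH (0.625-fold, adjusted p = 4.92e-09). For *Jun* it was -0.49 ± 0.0784 (adjusted p = 2.41e-05) and -0.53 ± 0.0815 (adjusted p = 1.71e-05). In neither treatment did the libraries of the lines overlap for either gene, and the calls for both were kept in all 19 alternative settings of each comparison.

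For *Fosl2* the difference was -0.22 ± 0.0617 with vehicle (adjusted p = 0.00609) and -0.50 ± 0.0618 with PTH (adjusted p = 1.04e-06), again without overlap and kept in all 19 alternative settings. *Junb* changed sides, from -0.25 ± 0.0937 with vehicle (adjusted p = 0.0318, libraries overlapping) to 0.43 ± 0.0932 with PTH (adjusted p = 0.000632). The vehicle value was lost with library totals alone (adjusted p = 0.0793) and without W20 VEH replicate 2 (0.155) or 3 (0.154) or Y428F VEH replicate 2 (0.0582) or 3 (0.110).

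*Fosl1* was higher in Y428F with PTH by 0.36 ± 0.146 (adjusted p = 0.0483), against 0.15 ± 0.159 with vehicle (adjusted p = 0.485). That call was lost with the DESeq2 Wald test (adjusted p = 0.0512) and without W20 PTH replicate 1 (0.0693) or 3 (0.259, log2 change 0.20), Y428F VEH replicate 1 (0.0607), 2 (0.0652) or 3 (0.0611), or Y428F PTH replicate 1 (0.0867), 2 (0.131) or 3 (0.0625). *Fosb* was at -0.64 in both treatments (SE 0.304 and 0.267, adjusted p = 0.0934 and 0.0566) and did not pass. It passed with PTH without W20 PTH replicate 3 (0.0108) or Y428F VEH replicate 1 (0.0415) and with a minimum of 10 counts in every library (0.0417), and with vehicle without Y428F VEH replicate 1 (0.0264). *Fos* was at -0.27 ± 0.309 with vehicle and -0.57 ± 0.313 with PTH (adjusted p = 0.525 and 0.145).

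**Figure D4:**
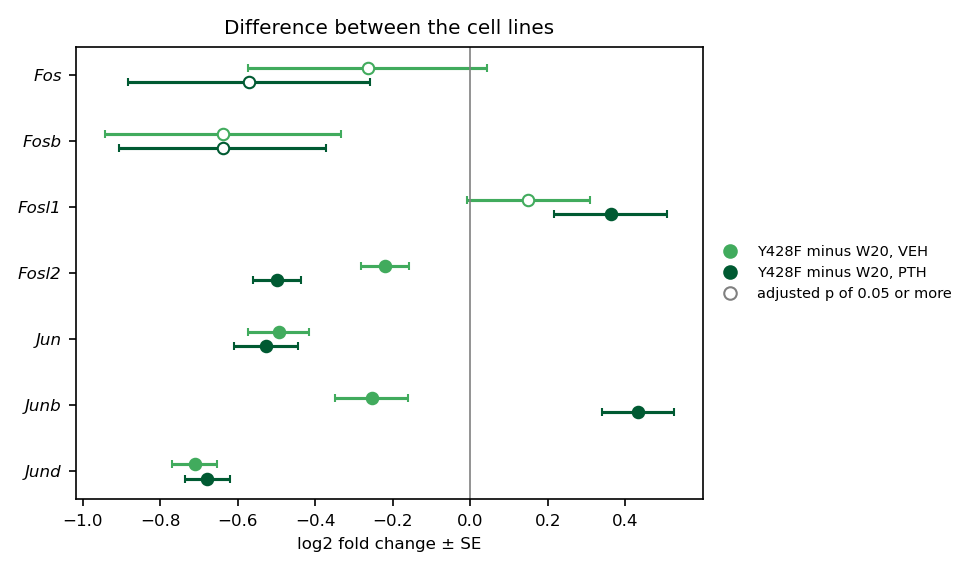
Log2 fold change between the lines (Y428F minus W20) with vehicle and with PTH, for the 7 genes, with SE bars and filled points for an adjusted p under 0.05. *Jund* lies furthest to the left of the genes called (-0.71 and -0.68), and *Junb* is left of 0 with vehicle and right of 0 with PTH.

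Markers of cell identity also differed between the lines. The summed level of the 14 stromal markers averaged 27444 and 28065 CPM in W20 VEH and W20 PTH and 18918 and 17307 CPM in Y428F VEH and Y428F PTH, most of it the collagen genes *Col1a1* and *Col1a2* (7049 and 12829 CPM in W20 VEH). With vehicle, 9 of the 12 tested were lower in Y428F and 1 was higher, beside 22.7% lower and 22.4% higher among all genes. The higher one was *Lepr* (2.77 on the log2 scale, adjusted p = 0.000244, at 0.143 CPM in W20 VEH and 1.03 in Y428F VEH). *Vim* and *Twist2* were at -0.11 and -0.03 (adjusted p = 0.14 and 0.784). The 7 hematopoietic markers summed to 2.03, 1.90, 6.59 and 7.55 CPM, the most abundant being *Ptprc* and *Lyz2*, with *Cd3e* at 0. The 4 endothelial markers summed to 0.882, 0.598, 8.30 and 6.13 CPM, nearly all of it *Cdh5*, and the 4 epithelial markers to 0.624, 0.512, 3.67 and 4.41 CPM, mostly *Krt8*, with *Epcam* at 0. The 7 osteoblast markers summed to 859, 801, 563 and 577 CPM, mostly *Spp1*, and the 5 adipocyte markers to 389, 421, 414 and 469 CPM, mostly *Lpl*, with *Adipoq* at 0. Adipocyte markers moved in both directions between the lines with vehicle. *Fabp4* was lower in Y428F (26.9 and 6.57 CPM, -2.03 on the log2 scale, adjusted p = 8.67e-11), and *Pparg* and *Lpl* were higher (0.33, adjusted p = 0.000835, and 0.15, adjusted p = 0.0496). The part of these differences in the levels of the FOS and JUN genes was not tested.

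Taking each gene across the 4 groups, *Jund* was ordered W20 VEH, W20 PTH, Y428F VEH, Y428F PTH from high to low, and no neighbours in that order overlapped. *Jun* had the same order, with W20 PTH and Y428F VEH overlapping. *Junb* was highest in Y428F PTH, and the other 3 groups overlapped from one to the next. *Fosl1* was ordered Y428F PTH, W20 PTH, Y428F VEH, W20 VEH, with overlap only between the vehicle groups. *Fosl2* was ordered W20 PTH, W20 VEH, Y428F VEH, Y428F PTH, with overlap only between the W20 groups. *Fosb* was highest in W20 PTH, which overlapped Y428F PTH, and *Fos* libraries overlapped from each group to the next.

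AP-1 also forms from ATF and MAF proteins with FOS and JUN. Of 14 such partners and repressors, 11 were tested. The counts of called genes in this and the following lists stand beside 13.4% of all genes called with PTH in W20, 12.4% in Y428F and 0.413% for the difference. The called shares were larger among genes with at least 10 counts in every library, as given above. In W20, 2 rose and 3 fell with PTH (45.5% called, median log2 change -0.04), and in Y428F 4 rose and 1 fell (45.5%, median 0.17). Over the 3 scalings, 1 to 2 rose in W20 and 1 to 3 fell in Y428F, and 2 fell there with the DESeq2 Wald test. *Maff*, a small MAF protein without an activation domain, rose by 0.85 ± 0.0799 in W20 (adjusted p = 2.63e-07) and by 1.60 ± 0.0758 in Y428F (adjusted p = 3.31e-11). *Jdp2*, a repressor of AP-1, changed by -0.36 in W20 and -0.26 in Y428F, both called. *Atf4*, an activator of the stress response, and its partner *Ddit3* changed by -0.59 and -0.52 in W20, and were at -0.21 and -0.23 in Y428F (adjusted p = 0.059 and 0.0942). The small MAF genes *Mafk* and *Mafg* rose by 0.83 and 0.23 in Y428F and were at 0.23 and 0.11 in W20 (adjusted p = 0.0746 and 0.287). The responses of *Maff* and *Mafk* differed between the lines, by 0.75 ± 0.110 (adjusted p = 0.00187) and 0.60 ± 0.115 (adjusted p = 0.0199). Leaving out 1 library ended the call of *Mafk* in 7 of 12 cases (adjusted p up to 0.0826) and that of *Maff* in 0. Between the lines with vehicle, 2 partners were higher in Y428F and 4 lower (54.5%, near the 45.1% of all genes), among them *Maf* at -1.33 and *Jdp2* at -0.81.

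Immediate early genes outside the family, which share the fast induction of *Fos* and *Fosb*, were tested for 22 of 24 listed. In W20, 7 rose and 5 fell (54.5% called, median 0.20), and in Y428F 13 rose and 2 fell (68.2%, median 0.31). *Srf*, the factor that binds the CArG box, rose by 1.66 in W20 and 1.22 in Y428F, and *Dusp5*, a phosphatase of ERK, by 1.21 and 1.31. *Ccn1*, a secreted matrix protein and YAP target, rose by 1.07 and 0.62, whereas *Btg2*, an antiproliferative gene, fell by 1.12 and 1.15. *Egr2*, a zinc finger factor, rose by 2.29 in Y428F and was at 0.40 in W20 (adjusted p = 0.295). *Nr4a3*, an orphan nuclear receptor, rose by 1.86 in Y428F and was at 1.60 in W20 (adjusted p = 0.054). Responses differed between the lines for *Egr2* (1.89, adjusted p = 0.0289), *Ier3* (0.91, adjusted p = 0.0169) and *Srf* (-0.44, adjusted p = 0.0457), and leaving out 1 library ended the call in 10, 4 and 8 of 12 cases. The count of genes that rose in Y428F was 10 to 13 over the 3 scalings.

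**Figure D5:**
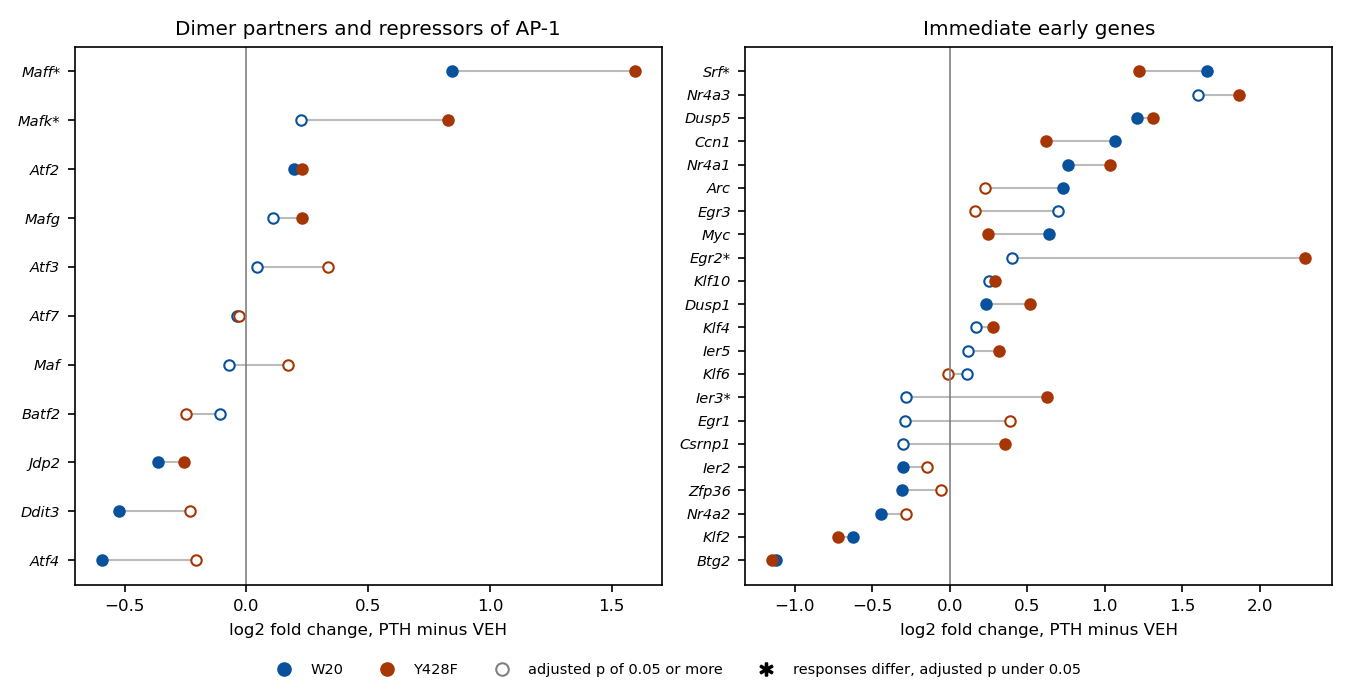
Log2 fold change with PTH in W20 (blue) and Y428F (orange) for the tested dimer partners of AP-1 (left) and immediate early genes (right), filled where the adjusted p is under 0.05, with an asterisk where the responses differ between lines. *Maff* and *Mafk* rise more in Y428F, *Egr2* shows the widest gap (1.89), and *Srf* rises more in W20.

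Of 27 factors that act on FOS and JUN promoters, 9 rose and none fell in W20 (33.3% called), and 6 rose and none fell in Y428F (22.2%). Over the 3 scalings, the W20 count was 6 to 9 higher and 0 to 1 lower. *Tead4*, a DNA-binding partner of YAP, rose by 1.14 in W20 and 0.55 in Y428F, and *Tead1* by 0.78 and 0.72. *Yap1* rose by 0.35 and 0.22, *Wwtr1*, its paralog, by 0.25 in both lines, and *Mrtfa*, a cofactor of SRF, by 0.25 and 0.38. *Mrtfb*, the relative of *Mrtfa*, rose by 0.33 in W20 and was at 0.23 in Y428F (adjusted p = 0.0733). The edgeR interaction test called 0 of the 27, as did the DESeq2 Wald test, and 2 had an unadjusted p under 0.05.

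Among 26 kinases and phosphatases of FOS and JUN, 4 rose and none fell with PTH in each line (15.4% called, close to the share of all genes; 8 and 6 higher and 0 lower at an unadjusted p under 0.05). Over the 3 scalings, 2 to 4 rose in W20 and 4 to 5 in Y428F. *Map2k4*, which activates JNK, rose by 0.49 and 0.28, and *Dusp14*, a dual-specificity phosphatase, by 0.27 and 0.54. *Dusp6*, a feedback phosphatase of ERK, and *Mapk8*, which encodes JNK1, rose by 0.65 and 0.28 in Y428F and were at 0.23 and 0.13 in W20 (adjusted p = 0.190 and 0.295). Of 14 genes of FOS and JUN mRNA and protein turnover, 2 rose and 1 fell in W20 (21.4% called) and 1 rose and 1 fell in Y428F (14.3%). Over the 3 scalings, 0 to 2 of these rose in W20, and both higher calls there were lost with another scaling. *Zfp36*, which speeds decay of AU-rich mRNAs, changed by -0.31 in W20 and was at -0.06 in Y428F (adjusted p = 0.813). Its relative *Zfp36l2* rose by 0.47 in Y428F and was at 0.19 in W20 (adjusted p = 0.077).

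Of 32 genes known as AP-1 targets, 29 were tested, and 8 rose and 2 fell in W20 (34.5% called, median 0.13) while 9 rose and 2 fell in Y428F (37.9%, median 0.17). *Ptgs2*, the inducible cyclooxygenase, rose by 0.98 and 1.30. *Ereg* and *Hbegf*, growth factors of the EGF family, rose by 1.12 and 1.06 in W20 and by 1.69 and 0.69 in Y428F. *Ccl2*, a chemokine, rose by 0.54 in W20 and 0.89 in Y428F. *Mmp13*, the collagenase that PTH is known to raise through AP-1 in osteoblasts, was near the floor, at 22 to 48 counts per library, with changes of 0.44 ± 0.268 in W20 and 0.49 ± 0.261 in Y428F that did not pass (adjusted p = 0.333 and 0.270). *Vegfa*, the endothelial growth factor, differed in response by 0.37 ± 0.0779 (adjusted p = 0.0372), and that call was lost without 1 library in 10 of 12 cases.

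Of 12 tested cAMP response genes (13 listed), 4 rose and 1 fell in W20 (41.7% called) and 5 rose and 1 fell in Y428F (50.0%). Over the 3 scalings, 1 to 2 fell in W20. The phosphodiesterase gene *Pde4d* rose by 1.38 in W20 and 0.64 in Y428F, with a difference of -0.74 ± 0.158 (adjusted p = 0.0381, lost without 1 library in 9 of 12 cases). *Nr4a1*, an orphan nuclear receptor, rose by 0.76 and 1.04. The gene that fell in W20 was *Nr4a2* (-0.44), which was at -0.29 in Y428F (adjusted p = 0.166). The gene that fell in Y428F was *Sik1* (-0.35), which was at -0.22 in W20 (adjusted p = 0.107). *Nr4a1*, *Nr4a2*, *Nr4a3*, *Ptgs2*, *Dusp1*, *Areg* and *Crem* also stand in other lists above.

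For each member, the genes with the most similar log2 CPM profile over the 12 libraries were found among the 12031 genes that averaged 1 CPM or more. For *Jund* these were *Tmem119*, *Pik3ip1* and *Npr2* (Pearson r = 0.994, 0.992 and 0.992), for *Jun* *Inpp5e*, *Xylt2* and *Klhl26* (r = 0.985, 0.984 and 0.983), and for *Fosl2* *Lpin1*, *Sik3* and *Tns3* (r = 0.970, 0.969 and 0.967). *Fosl1* was closest to *Tuft1*, *Cd44* and *Smad9* (r = 0.952, 0.949 and 0.948), *Junb* to *Btg1*, *Pwwp2a* and *Fbxo32* (r = 0.921, 0.898 and 0.887) and *Fosb* to *Rnf217* (r = 0.955). These 12 points share 4 groups, so the values describe a common pattern over groups, and for *Fos* and *Fosb* the counts were too few to say more.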

How the data were processed

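Bulk mRNA (poly-T selected) was sequenced from 12 libraries. The authors used STAR 2.7.10b and RSEM on GRCm39, per the submitters' processing notes, and deposited expected counts (estimated reads per gene, not normalized) for 56980 genes. Strand setting is not given in the sources used here. Expected counts were rounded to whole numbers. Totals of 17127897 to 19057319 per library set the precision, and 31906 genes had 0 counts in all libraries.

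Counts were analysed with edgeR 4.0.16 in R 4.3.3 (TMM scaling, at least 10 counts over 12 libraries, glmQLFit and glmQLFTest, Benjamini-Hochberg limit 0.05), in one fit of 4 groups with 5 contrasts. Standard errors come from the Fisher information of the fit. Lengths and coordinates are from GENCODE annotation of GRCm39. Groups followed the library titles. Similarity of profiles used log2 CPM with a prior count of 2. The family genes and all lists were chosen with earlier results of these data known. For each list, at most 4 called genes with the largest absolute change per comparison were named, beside genes whose responses differed and *Mmp13*, *Yap1* and *Pth1r*, chosen after their values were seen. Some genes that this rule or the marker lists name are not reported here. Where a symbol matched 2 gene IDs (*Ddit3*), the one with more counts was used. DESeq2 1.42.0 was an alternative, with others listed in the closing section. No pair of libraries of the same group agreed within sampling noise (chi-square per degree of freedom 2.87 to 14.2).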

Additional observations from a re-analysis of the deposited data

Results flagged for a closer look

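The response to PTH differed between the lines, by the edgeR interaction test, for *Junb* among the FOS and JUN genes and for 7 genes of the lists around them. The log2 difference (Y428F minus W20) was 0.6877 for *Junb*, 0.7495 for *Maff*, 0.6034 for *Mafk*, 1.893 for *Egr2*, 0.9088 for *Ier3*, 0.3677 for *Vegfa*, -0.4351 for *Srf* and -0.7426 for *Pde4d*.

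*Maff* stood at 17.0 ± 0.428 CPM in W20 VEH, 30.6 ± 1.83 in W20 PTH, 19.6 ± 1.24 in Y428F VEH and 59.2 ± 3.04 in Y428F PTH, and its call was kept without any 1 of the 12 libraries (differences of 0.69 to 0.81, adjusted p = 0.00218 to 0.0125). *Egr2* stood at 3.92 ± 1.54, 5.16 ± 0.854, 0.675 ± 0.0844 and 3.34 ± 0.340 CPM in the same order, and its lowest library had 11 counts. *Mafk* lost its call in 7 of 12 such fits (adjusted p up to 0.0826), *Junb* in 6 and *Ier3* in 4 (up to 0.0621). *Srf* lost it in 8 (up to 0.194), *Pde4d* in 9 (up to 0.161), *Egr2* in 10 (up to 0.117) and *Vegfa* in 10 (up to 0.137).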

How the results depend on the processing

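Of 679 values of the 7 genes under alternative settings, 612 kept their direction and side of the limit, 37 lost the call, 16 gained one and 14 changed sign, 0 of these past the limit in either fit. The difference in response of *Fosb*, -0.0002381, changed sign with library totals alone (0.01525), without a filter on low counts (0.005201), with at least 10 counts in every library (0.008928) and with the replicate block (0.03236). Without 1 library it was -0.2284 to 0.3174, that of *Jun* -0.1024 to 0.04228 and that of *Jund* -0.01043 to 0.07982. *Fos* in Y428F PTH was then at -0.3303 to 0.07897 and *Fosl1* between the vehicle lines at -0.03484 to 0.3387. Among the family genes, 2 were called in W20 with PTH at a limit of 0.01 (1276 genes in all), and 2 with the 6 W20 libraries alone (1837 in all). Without 1 library the count was 2 to 5 (1591 to 2611 genes in all). In Y428F it was 5 with library totals alone (2333 in all) and 5 with the DESeq2 Wald test (2367 in all), and 3 to 4 without 1 library. Genes called there numbered 1135 at 0.01 and 1435 to 2515 without 1 library, the lowest without Y428F VEH replicate 1. For the difference in response, 124 genes were called with the DESeq2 Wald test, 216 without a filter on low counts, 22 at 0.01, and 24 to 89 without 1 library (24 without Y428F PTH replicate 3), against 73. At 0.01, 0 family genes were called there (*Junb* 0.6877, adjusted p = 0.0215 in edgeR), and without 1 library 0 to 1, with *Junb* at 0.6001 to 0.8094. With library totals alone, 37.3% of called genes were higher with PTH in W20, against 55.2% with TMM, and 38.1% against 53.4% in Y428F.

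With the replicate number as a block, 4, 4, 4, 5 and 1 family genes were called in W20 PTH, Y428F PTH, the vehicle lines, the PTH lines and the difference (2430, 2273, 7976, 8027 and 76 of all genes), and *Junb* differed by 0.69 (adjusted p = 0.0131). The block added *Fosb* in Y428F and changed no other call among the 7. No shared deviation by replicate number was seen: deviations of same-numbered libraries from their group means correlated by 0.0019 on average (-0.0311 to 0.0371 over 18 pairs), and those of differently numbered libraries by -0.044 to 0.0659. This cannot show whether same-numbered libraries were set up together.

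Per-length levels moved with the gene length used (*Fosl2* 40.9 CPM per kb on exon union, 122 on median transcript length and 61.0 on canonical transcript length, the last chosen after seeing the data). With 3 libraries per group and 15 to 76 counts, *Fos* and *Fosb* were the least precise.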
